A study of Mus musculus with 6 samples.

Results

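Htatip2 and 9 genes that lie near it on mouse chromosome 7, on the centromere side of Ube3a, were followed in macrophages of Ube3a knockout mice. The 10 genes were picked by symbol from a table of 16836 genes. Htatip2 was picked because its level differed between the genotypes in these same libraries, and the other 9 (Prmt3, Nav2, E2f8, Zdhhc13, Tsg101, Uevld, Gtf2h1, Hps5 and Spty2d1) because they lie at about 46 to 50 Mb of that chromosome. The genotype difference therefore chose Htatip2, and the values of the 10 genes below are a description, with no test. Polyadenylated RNA was sequenced from bone marrow-derived macrophages, cells matured in culture from marrow precursors, with 3 libraries from UBE3A KO mice (KO, Ube3a-/-) and 3 from wild-type littermates (WT). The labels give neither the design of the knockout allele, nor strain, age, treatment or the number of animals behind the libraries. Spread between libraries may thus be technical in part.

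Htatip2, also known as TIP30 or CC3, encodes a short-chain dehydrogenase-like protein that binds NADPH and has been described as a growth suppressor. Its neighbours serve unrelated tasks: Tsg101 sorts ubiquitin-tagged receptors at endosomes, Gtf2h1 is part of the transcription and repair factor TFIIH, and E2f8 represses cell cycle genes. Genes that sit next to each other can share a promoter region, as head-to-head pairs do, or be read from wholly separate starts.

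The sequence before the start of Htatip2 is shown because this gene has the genotype gap, and that before Prmt3 because this gene begins 4370 bp beyond the end of Htatip2 on the same strand and has a far smaller gap. Both are the 250 bases before the RefSeq start on build GRCm38.p6, plus strand, at chr7:49758856-49759105 for Htatip2 and chr7:49778108-49778357 for Prmt3. Hps5 and Gtf2h1 point away from each other, and the 38 bases between them in the GENCODE annotation (chr7:46796065-46796102, plus strand) are also shown. They are the only stretch among the 10 genes where starts lie that close in GENCODE. By RefSeq the starts of this pair lie 212 bp apart. Capitals mark matches to GGGCGG or CCAAT on either strand.
Htatip2: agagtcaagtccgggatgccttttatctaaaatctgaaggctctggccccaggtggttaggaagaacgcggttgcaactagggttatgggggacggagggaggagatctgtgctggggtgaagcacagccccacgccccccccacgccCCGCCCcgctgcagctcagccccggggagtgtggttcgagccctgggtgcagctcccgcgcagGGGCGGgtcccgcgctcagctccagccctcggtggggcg
Prmt3: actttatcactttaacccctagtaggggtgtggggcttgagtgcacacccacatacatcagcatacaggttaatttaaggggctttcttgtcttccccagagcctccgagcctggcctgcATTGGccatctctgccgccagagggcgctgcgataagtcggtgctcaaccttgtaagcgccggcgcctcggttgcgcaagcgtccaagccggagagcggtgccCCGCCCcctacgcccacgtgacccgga
Hps5 to Gtf2h1: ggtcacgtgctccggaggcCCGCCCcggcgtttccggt

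The Htatip2 window held 2 matches to GGGCGG and none to CCAAT or TATAAA. The Prmt3 window held 1 match to GGGCGG, 1 to CCAAT and none to TATAAA. Over 32817 RefSeq promoter windows of the same length, 32.7% held GGGCGG, 33.8% CCAAT and 12.4% TATAAA, so these letters are common. Both windows held 17 CpG pairs, against a median of 6 over all windows, and the GC share was 67.2% for Htatip2 and 60.4% for Prmt3. RefSeq gives Htatip2 a further start, whose window (chr7:49759262-49759511) held 8 CpG pairs and 1 match to CCAAT.

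Libraries held 25454862 to 35517269 reads in the table, so that 1 read was worth 0.0277 to 0.0400 CPM, a read count scaled to the authors' effective library size. Ube3a, the targeted gene, stood at 61.2 to 77.0 CPM in KO and 177.6 to 207.1 CPM in WT. Xist was nearly absent from the libraries numbered 2 in both genotypes, at 28 reads in KO and 14 in WT, against 30161 or more in the other 4. The 8 macrophage markers summed to 13571 to 16115 CPM in KO and 14721 to 15558 CPM in WT. The 7 neutrophil markers in the table summed to 2.76 to 10.5 CPM in KO and 4.81 to 16.6 CPM in WT, and the 1 lymphocyte marker in the table, of 6 listed, reached at most 0.120 CPM in KO and 0.111 CPM in WT. The 3 dendritic cell markers in the table stayed at 0.480 to 0.578 CPM in KO and 0.141 to 0.448 CPM in WT, and the 4 stromal ones at 1.24 to 1.39 CPM in KO and 1.05 to 2.16 CPM in WT. The 2 erythroid and megakaryocyte markers in the table, of which 1 reached 1 CPM, summed to 71.3 to 107 CPM in KO and 70.6 to 82.1 CPM in WT. Kit and Cd34 were the mast cell, basophil and progenitor markers in the table, and only 1 of them reached 1 CPM. They summed to 26.0, 24.6 and 34.4 CPM in KO and 77.5, 29.1 and 74.3 CPM in WT, so that WT replicates 1 and 3 stood apart. This sum thus rests largely on 1 gene. The part of these markers in the values below was not tested.

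Htatip2 RNA was lower in the knockout macrophages, while the log2 fold changes of the other 9 genes lay within 0.2 of 0. Over the 12118 genes tested, log2 fold changes had an SD of 0.14, so values within 0.2 of 0 are common. Htatip2 stood at 30.1, 23.9 and 25.8 CPM in KO replicates 1 to 3, against 45.5, 58.4 and 46.8 CPM in WT replicates 1 to 3. Every KO library lay below every WT library, and the gap between the highest KO and the lowest WT library was wider than the whole KO range. The means were 26.6 ± 3.17 CPM in KO and 50.2 ± 7.10 CPM in WT (SD, n = 3 each), so that KO held 53.0% of the WT level. On the log2(CPM + 1) scale, which slightly understates the change of low genes, the fold change was −0.89 ± 0.12 (SE), with a 95% interval of −1.16 to −0.61. The limma adjusted p of Htatip2 was 0.182. Since this contrast chose the gene, the interval is a description and no test. Each library held 745 to 1687 Htatip2 reads, so counting error is small beside the spread between libraries. In bulk RNA, fewer cells that express a gene and less RNA per cell cannot be told apart.

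The gap was present in the libraries with Xist and in those nearly without it, which the lack of overlap between the genotypes fixes for any split. With Xist, Htatip2 stood at 30.1 and 25.8 CPM in KO and 45.5 and 46.8 CPM in WT. Nearly without it, the single KO library had 23.9 CPM and the single WT library 58.4 CPM, the lowest and the highest values of the 6. Without both of these libraries the log2 fold change was −0.71. Htatip2 (ENSMUSG00000039745) lies at chr7:49759115-49773975 on the plus strand in GENCODE M21 (GRCm38), 9.45 Mb from Ube3a. In this annotation it overlaps no other gene.

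**Figure D1:**
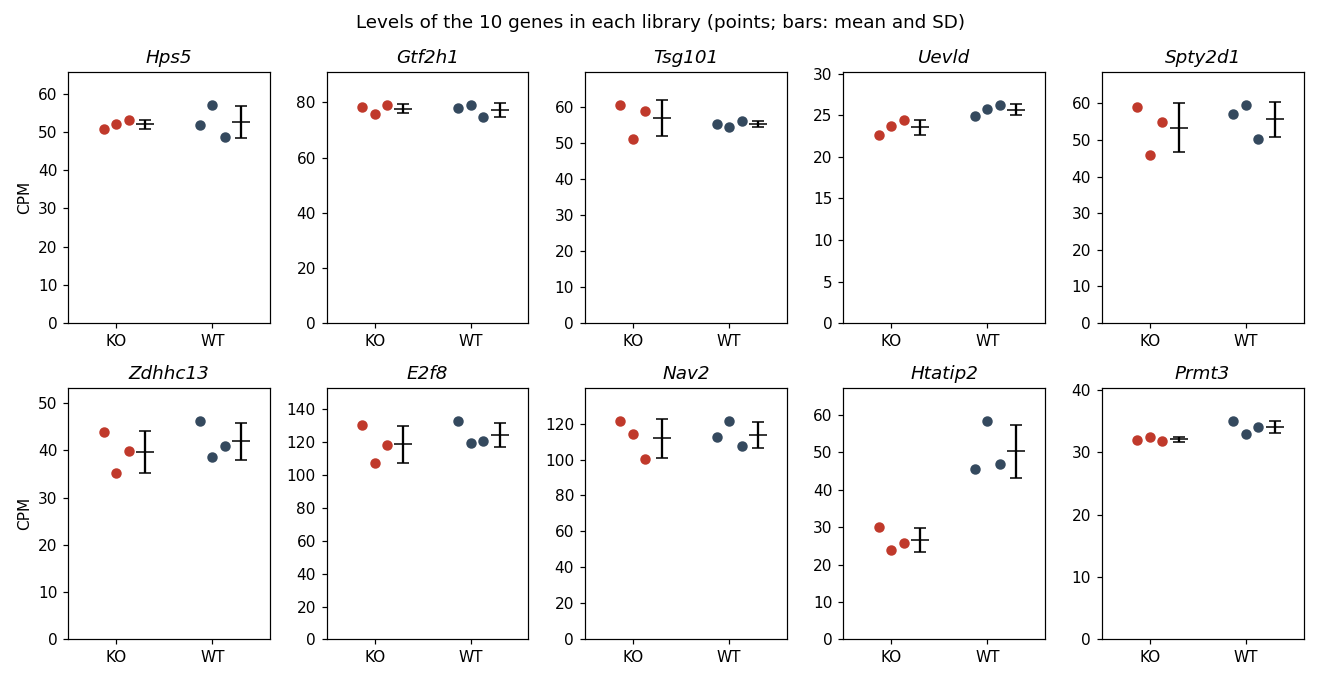
Level in CPM (y axis from 0) of the 10 genes in chromosome order, 1 panel per gene, in KO libraries (left, red) and WT libraries (right, dark); points are libraries 1 to 3 from left to right, and the bar is the mean with its SD. The 3 KO points lie below the 3 WT points for Htatip2, and by far less for Uevld and Prmt3; in the other 7 panels the genotypes overlap.

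Prmt3, which encodes an arginine methyltransferase of the cytosol that modifies ribosomal protein S2, is the nearest to Htatip2 of the 9 other members. It stood at 31.9, 32.5 and 31.8 CPM in KO and 35.0, 33.0 and 34.1 CPM in WT. All KO values were below all WT values, though the highest KO and the lowest WT library differed by less than 1 CPM. Its log2 fold change was −0.08 ± 0.06 (SE), with an interval of −0.23 to 0.06. The ratio of Htatip2 to Prmt3, both in CPM, was 0.944, 0.736 and 0.811 in KO and 1.30, 1.77 and 1.37 in WT. Adjacent genes read in the same direction thus stood in different proportion in the genotypes, which the choice of Htatip2 fixes.

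Nav2, a neuron navigator of the cytoskeleton, ends 149.0 kb before Htatip2 and spans 701.4 kb. It stood at 121.4, 114.2 and 100.04 CPM in KO and 112.3, 121.5 and 107.4 CPM in WT, so the genotypes overlapped throughout. Its log2 fold change was −0.03, with an interval of −0.22 to 0.17. The nearest members on either side of Htatip2 thus had intervals that include 0.

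E2f8, an atypical E2F factor that binds DNA without a DP partner and represses genes of the cell cycle, and Zdhhc13, an ankyrin-repeat palmitoyltransferase, lie 38988 bp apart and are read toward each other. E2f8 stood at 130.4, 107.6 and 118.2 CPM in KO and 133.0, 119.3 and 120.9 CPM in WT. Zdhhc13 stood at 43.9, 35.2 and 39.9 CPM in KO and 46.3, 38.6 and 41.0 CPM in WT. Both genes were highest in WT replicate 1 and lowest in KO replicate 2, and the genotypes overlapped. Across the 6 libraries their log2(CPM + 1) values had a Pearson r of 0.98, the highest of the 45 pairs among the 10 genes, given as a description, since both genes are read from the same libraries. The log2 fold change was −0.07 (interval −0.26 to 0.12) for E2f8 and −0.08 (−0.31 to 0.15) for Zdhhc13.

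A list of 21 S phase and mitosis genes was set beside E2f8. Relative to the mean of the 6 libraries it stood at −0.04, −0.09 and 0.0023 on the log2 scale in KO and at 0.08, −0.0037 and 0.06 in WT. As for E2f8, WT replicate 1 was highest and KO replicate 2 lowest. The part of this list in the E2f8 values was not tested.

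Tsg101 is the ubiquitin-binding subunit of ESCRT-I, the complex that hands membrane cargo to lysosomes and takes part in virus budding and cell division. It stood at 60.7, 51.2 and 58.9 CPM in KO and 55.2, 54.6 and 56.2 CPM in WT, with the WT values inside the KO range. Its log2 fold change was 0.04, with an interval of −0.14 to 0.21. Uevld joins a ubiquitin E2 variant domain of the kind found in Tsg101 to a lactate dehydrogenase-like domain, and lies 3246 bp from Tsg101 on the same strand. It stood at 22.6, 23.6 and 24.4 CPM in KO and 24.9, 25.8 and 26.3 CPM in WT, without overlap. Its log2 fold change of −0.12 ± 0.07 (SE; interval −0.28 to 0.04) was the most negative after Htatip2 among the 10 genes.

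Gtf2h1 encodes the p62 subunit of TFIIH, which opens DNA at promoters and in nucleotide excision repair. It stood at 78.3, 75.9 and 79.1 CPM in KO and 77.9, 79.2 and 74.6 CPM in WT, with a log2 fold change of 0.01 (interval −0.12 to 0.14). Hps5, a subunit of BLOC-2 in the making of lysosome-related organelles, stood at 50.6, 52.0 and 53.2 CPM in KO and 51.9, 57.1 and 48.6 CPM in WT, with a log2 fold change of −0.01 (−0.18 to 0.16). The genotypes overlapped for both genes of this head-to-head pair. Across the 6 libraries Gtf2h1 had a Pearson r of 0.73 with Hps5 and of 0.79 with Spty2d1, given as a description. Spty2d1, a chaperone of histones H3 and H4, stood at 59.1, 45.9 and 54.8 CPM in KO and 57.1, 59.6 and 50.4 CPM in WT (log2 fold change −0.07, interval −0.31 to 0.18). Its genotypes overlapped, with KO replicate 2 the lowest library.

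The 9 neighbours together spanned log2 fold changes of −0.12 to 0.04, with a median of −0.07, beside a median of 0.0015 over the 12118 genes tested. A gene was tested if it reached 1 CPM in at least 3 libraries, and all 10 did. Of the 10, 8 had a negative and 2 a positive value, where 49.6% of all tested genes were negative. When KO replicate 2 was left out 6 members were negative, when WT replicate 2 was left out again 6, and with neither library 5. Leaving out 1 library at a time changed the sign of Nav2, Zdhhc13, Tsg101, Gtf2h1, Hps5 and Spty2d1 at least once, so no direction is given for these 6. None is given for E2f8 either, which came to −0.0016 without KO replicate 2. In 3 of the 10 (Htatip2, Prmt3 and Uevld) all KO libraries lay below all WT libraries, as in 5.55% of all tested genes, and in none did all KO libraries lie above, as in 4.41%; either way it was 9.95%. No member passed a Benjamini-Hochberg adjusted p of 0.05 in limma, and 0.0165% of tested genes did. At an unadjusted p under 0.05 the count was 1 of 10, beside 4.13% of tested genes (2.44% lower in KO), and limma-voom also passed 0 of 10 after adjustment. Since the contrast chose Htatip2, nothing is read from these counts.

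**Figure D2:**
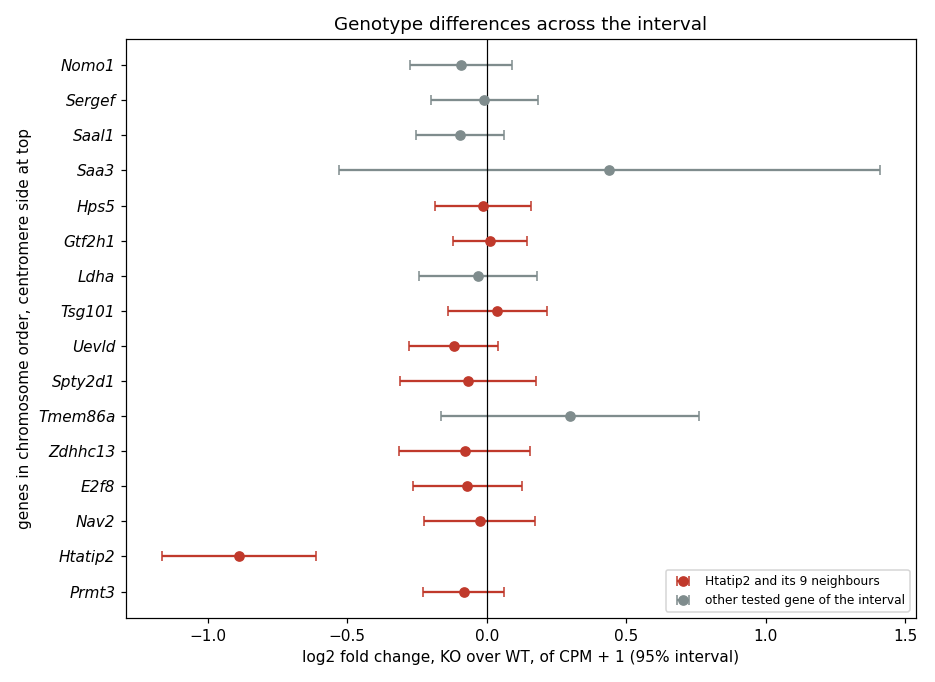
Log2 fold change of CPM + 1, KO over WT, with its 95% limma interval (x axis), for the tested named genes at 46 to 50 Mb of chromosome 7 in chromosome order (y axis). Red points are Htatip2 and its 9 neighbours, and grey points the 6 other genes. The interval of Htatip2, −1.16 to −0.61, lies left of 0, while those of all other genes shown include 0. Since this contrast chose Htatip2, its interval is a description and no test (limma adjusted p = 0.182).

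The annotation places 122 genes in this interval, of which 29 are in the table and 19 were tested. Apart from the 10 members, 9 were tested, 3 of them predicted models. None of the 9 passed the threshold in limma or in limma-voom, and none had an unadjusted p under 0.05. Over all tested genes the limma shares were 0.0165% and 4.13%, so nothing is read from these counts. Ldha, the lactate dehydrogenase subunit of muscle type, averaged 1011 ± 57.2 CPM in KO and 1036 ± 90.7 CPM in WT, with a log2 fold change of −0.03 (interval −0.24 to 0.18). Nomo1, an endoplasmic reticulum membrane protein, averaged 125.5 ± 9.42 CPM in KO and 133.8 ± 9.20 CPM in WT (−0.09). Sergef and Saal1 had log2 fold changes of −0.01 and −0.10.

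Saa3, an acute phase serum amyloid made by macrophages, and Tmem86a, a membrane lysoplasmalogenase, were the 2 positive ones, and their values spread widely within each genotype. Saa3 stood at 8.48, 6.04 and 3.67 CPM in KO and 2.37, 8.91 and 2.75 CPM in WT, with a log2 fold change of 0.44 whose interval of −0.53 to 1.41 leaves its size unresolved. Tmem86a stood at 31.03, 28.0 and 21.6 CPM in KO and 17.2, 29.2 and 19.6 CPM in WT (0.30, interval −0.16 to 0.76). In both genes, WT replicate 2 lay within the KO range or above it.

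Beyond the interval, the first tested genes lay 3.81 Mb from Htatip2 on the centromere side (Ccdc114, log2 fold change −0.04) and 2.09 Mb from Htatip2 toward Ube3a. On that second side lies Fancf, a subunit of the Fanconi anaemia core complex, with a mean of 3.56 ± 0.373 CPM in KO against 4.98 ± 0.301 CPM in WT (log2 fold change −0.39 ± 0.11 SE, limma adjusted p = 0.866), which did not pass. Next to it Gas2 stood at −0.20 and Svip at 0.34, and neither passed. These 3 genes had mean levels under 5 CPM and were named for their place. In windows of 4 Mb, the median log2 fold change was 0.09 over 69 tested genes at 42 to 46 Mb, −0.07 over 19 at 46 to 50 Mb and −0.20 over the 3 at 50 to 54 Mb. At 54 to 58 Mb it was −0.03 over 9 genes, and at 58 to 62 Mb, the window of Ube3a, −0.17 over 4. Of those 9 genes, 4 had an unadjusted limma p under 0.05, beside 4.13% of all tested genes, so the median hides differences. Medians elsewhere had either sign, such as −0.19 over 9 genes at 62 to 66 Mb and 0.06 over 53 at 2 to 6 Mb. Over all 926 tested genes of chromosome 7 the median was 0.03. Windows of few genes give only a rough picture.

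**Figure D3:**
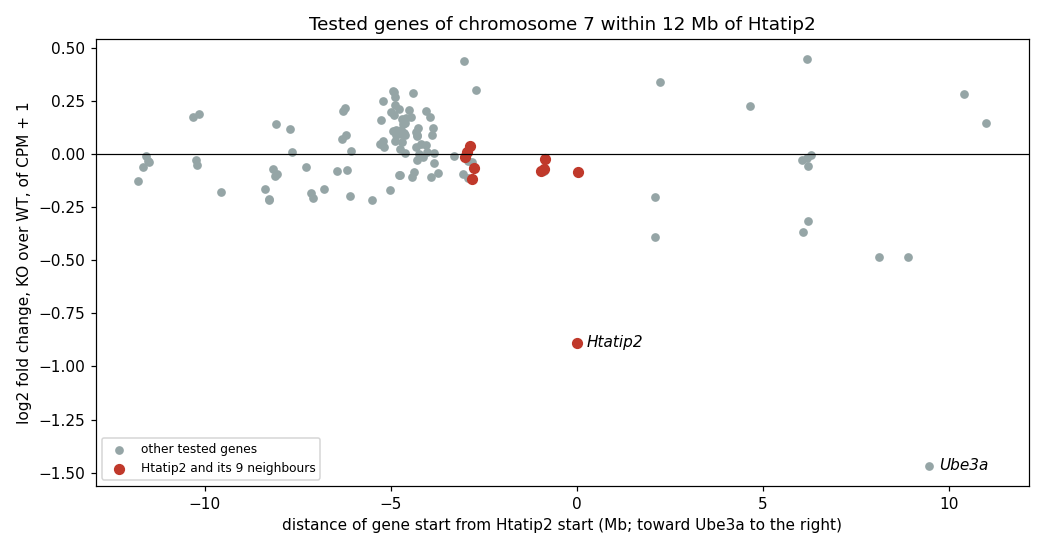
Log2 fold change of CPM + 1, KO over WT (y axis), of the tested genes of chromosome 7 around Htatip2 against the distance of their start from the start of Htatip2 in Mb (x axis; Ube3a lies to the right). Red points are Htatip2 and its 9 neighbours. Htatip2, at −0.89, and Ube3a, at −1.47, lie below all other points shown, and the red points on either side of Htatip2 lie near 0.

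Levels of different genes can be set side by side per length, here as CPM per kb of summed exons. In KO, Gtf2h1 was highest at 26.1 ± 0.559, followed by E2f8 at 21.8 ± 2.097, Tsg101 at 20.9 ± 1.86, Zdhhc13 at 16.5 ± 1.81 and Htatip2 at 13.1 ± 1.57 CPM per kb (SD, n = 3). E2f8 and Tsg101, and also Zdhhc13 and Htatip2, lay within their summed SDs of each other. Lower in KO came Hps5 at 7.99 ± 0.196, Spty2d1 at 7.85 ± 0.986, Prmt3 at 5.35 ± 0.0647, Nav2 at 3.47 ± 0.337 and Uevld at 3.12 ± 0.119 CPM per kb, of which Hps5 and Spty2d1, and also Nav2 and Uevld, lay within their summed SDs. In WT, Htatip2 stood at 24.8 ± 3.51 CPM per kb, between Gtf2h1 at 25.9 ± 0.802 and E2f8 at 22.9 ± 1.38, and within the summed SDs of both. The other 9 kept their order in WT except that Spty2d1, at 8.20 ± 0.704, stood above Hps5, at 8.09 ± 0.656 CPM per kb. Summed exons include rarely used ones, so genes with long annotations such as Nav2 may be understated.

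The genes whose pattern over the 6 libraries was most like that of Htatip2 lay elsewhere in the genome. By Pearson r of log2(CPM + 1) they were Mtx3 on chromosome 13 (r = 0.985), Nxf1 on 19 (0.984), Rnf17 on 14 (0.983), Swap70 on 7 at 60.4 Mb from Htatip2 (0.980) and Usp49 on 17 (0.973). Nxf1, the main mRNA export receptor, averaged 103.5 ± 0.218 CPM in KO and 110.6 ± 1.18 CPM in WT, and Rnf17 had a log2 fold change of −0.62. These values hold the genotype gap that Htatip2 was chosen for, and they are the highest among 12118 genes over only 6 libraries, so they are a description. Among the other 9 members the likeness was greatest for Uevld (r = 0.76, rank 470 of the tested genes) and Prmt3 (r = 0.67, rank 998), and for Tsg101 it was −0.09.

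With the mean of each genotype taken off, a different set came out on top, and 3 of its 5 genes are known to respond to interferon. They were Bst2, an antiviral tether (r = 0.999), Trim25, a ubiquitin ligase of antiviral signalling (0.999), Anpep (0.998), Rgs2 (0.998) and Irf9, a factor of the interferon response (0.998). Bst2 stood at 225.8, 95.4 and 123.1 CPM in KO and 76.0, 196.9 and 87.0 CPM in WT. Like Htatip2, it was highest in KO replicate 1 and in WT replicate 2 within its genotype. A list of 17 further interferon-stimulated genes, drawn up after this was seen, stood at 1.04, −0.85 and 0.16 on the log2 scale in KO and at −0.76, 0.86 and −0.45 in WT relative to the mean of all 6. Within each genotype the libraries kept the same order for Htatip2, Bst2 and this list. Bst2 was picked for its likeness among 12118 genes and the list was drawn up after it, so the shared order is only a description. Over all 12118 tested genes, KO replicate 1 and WT replicate 2 also deviated together from their genotype means (r = 0.40). None of the 17 passed in limma, and since KO replicate 1 and WT replicate 2 carry much of the list's level, no direction between genotypes is given for it. The part of these genes in the Htatip2 values was not tested.

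**Figure D4:**
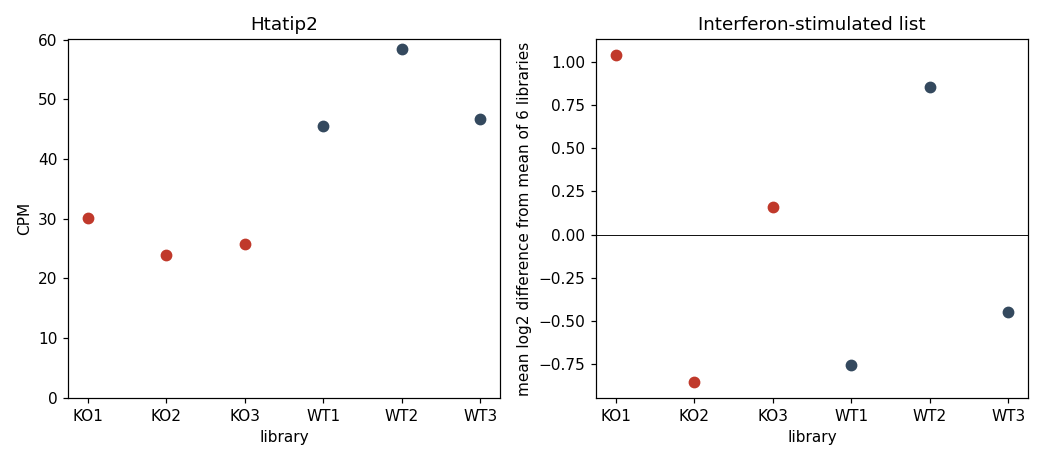
Htatip2 in CPM (left, y axis from 0) and the mean log2 level of 17 interferon-stimulated genes relative to the mean of all 6 libraries (right), in the 3 KO libraries (red) and the 3 WT libraries (dark). KO replicate 1 and WT replicate 2 are the highest of their genotype in both panels. All KO points of Htatip2 lie below all WT points, and the genotypes overlap for the list.

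Genes related to the 10 members by complex, family or partnership were set beside them. Of 153 genes in 11 such lists, a few of them on chromosome 7 (Ldha within the interval), 139 were tested, and none rose or fell in limma or in limma-voom. In limma 0.0165% of all tested genes passed, so nothing is read from this count. At an unadjusted p under 0.05 there were 5, where 4.13% of all genes reached it, and 68 genes were positive and 71 negative.

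Among 26 tested genes of the ESCRT machinery around Tsg101 the median log2 fold change was 0.03, with Chmp4b, which forms the filaments that cut membranes, averaging 211.0 ± 11.7 CPM in KO against 186.8 ± 25.5 CPM in WT (0.18), and the ESCRT-I subunit Mvb12b at 0.15. The E2 variants and lactate dehydrogenases related to Uevld, of which 3 were tested, had Ube2v2 at −0.17, Ldhb at −0.06 and Ldha at −0.03. For the 11 genes of TFIIH and its repair partners the median was 0.02, with Gtf2h3 at 0.15 and Gtf2h4 at 0.14.

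The 18 tested genes of BLOC, AP-3 and lysosome-related organelles beside Hps5 had a median of 0.08. Hps3, which joins Hps5 in BLOC-2, stood at 57.6, 58.5 and 63.9 CPM in KO and 67.9, 66.04 and 66.6 CPM in WT (−0.16), and the BLOC-1 subunit Dtnbp1 68.0 ± 2.54 CPM in KO and 58.9 ± 4.69 CPM in WT (0.21). The list thus held members on both sides. Among 12 E2F factors and pocket proteins the median was −0.08, with Rb1 at −0.21 and Rbl1 at −0.14, and among the S phase and mitosis genes it was −0.09, with 17 of 21 negative, Ccne2 at −0.29 and Cdc45 at −0.14. The list of histone H3-H4 and transcription chaperones beside Spty2d1, which also holds elongation factors (Supt4a, Supt5) and the acetyltransferase Hat1, had a median of −0.04 over 16 genes, with Atrx at −0.27 and Nasp at −0.14.

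Arginine methyltransferases, listed together with Rps2, the ribosomal protein that Prmt3 modifies, had a median of 0.04 over 8 tested genes, with Prmt9 and Prmt2 both at 0.13. Palmitoyltransferases, listed together with the accessory protein Golga7, had one of 0.04 over 20 genes, with Zdhhc21 at −0.26 and Zdhhc17, the other ankyrin-repeat member beside Zdhhc13, at −0.23. Nav1, the only other navigator tested, averaged 366.0 CPM in KO and 362.2 CPM in WT (0.01). Of the reported partners of Htatip2 in endosome traffic, Acsl4 stood at −0.19, and Rab5a and Sh3glb1 both at −0.01.

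**Figure D5:**
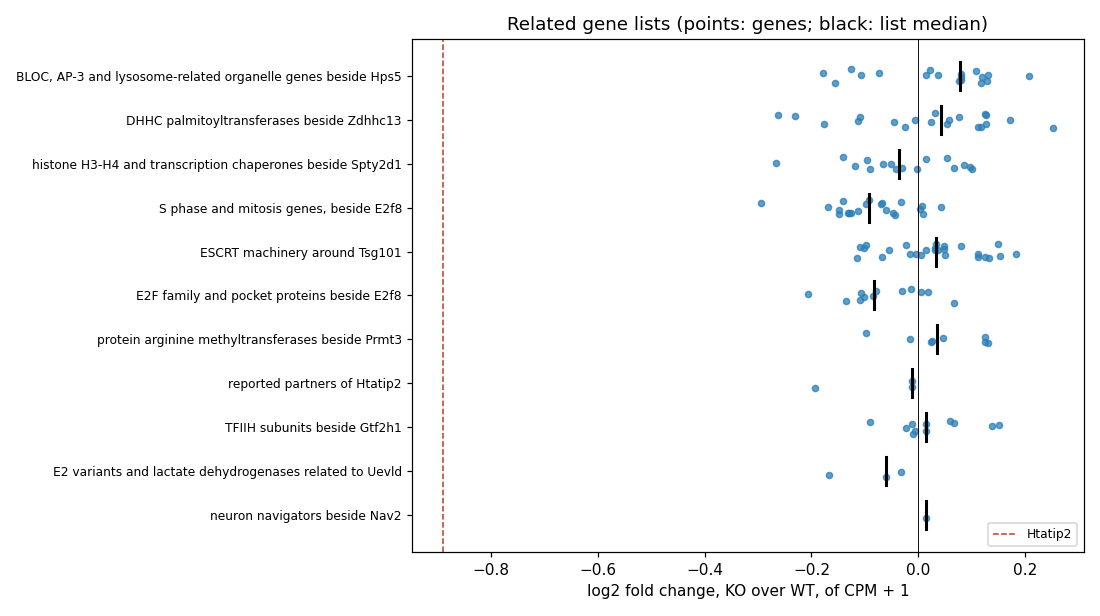
Log2 fold change of CPM + 1, KO over WT (x axis), of the tested genes in 11 lists of genes related to the 10 members (y axis); points are genes, spread vertically for visibility, and the black bar is the list median. All points lie between −0.29 and 0.25, to the right of the dashed line that marks Htatip2 at −0.89.

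Some reads near the members cannot be assigned with certainty, since the sources used here do not say whether strand was used in counting. Gm9392, a processed pseudogene of 554 bp on the opposite strand within Gtf2h1, had 310 to 492 reads per library, and Gm2788 overlaps E2f8 on the opposite strand and Nav2 on the same strand, with 16 to 40 reads. Against 1959 or more reads for Gtf2h1 and 3035 or more for Nav2 and E2f8, the second overlap is small and the first is not. Uevld holds Gm45737 on its own strand, with 36 to 60 reads against 565 or more for Uevld. The other overlapping genes in the table, in Hps5, Spty2d1, Zdhhc13, Nav2 and Prmt3, had at most 14 reads in any library.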

How the data were processed

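The authors deposited 1 table with a value per gene and library. Per the file headers these are CPM; values between −3.94 and 14.4 show a log2 scale with a prior count. The submitters' processing notes list Trimmomatic 0.36, HISAT2 2.1.0, Cufflinks, HTSeq 0.11.0 and FastQC 0.11.15. What each did, the build, the annotation and the use of strand are not stated there. In the deposited text, numbers whose absolute value is at least 1 carry misplaced decimal points. Raised to the power of 2 and less a shared offset, each value is a whole multiple of the CPM of 1 read, which restored them and gave read counts for 100% of genes, within 1e-06 of a whole number. The step was tested on simulated data and recovered 100% of reads over 7365 genes.

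CPM were computed from these reads and the library sizes implied by the authors' scaling. The 12118 genes that reached 1 CPM in 3 or more libraries entered limma 3.58.1 (R 4.3.3, eBayes with an intensity trend) on log2(CPM + 1), with genotype as the only term and Benjamini-Hochberg adjustment over all of them. The plan named another test for raw counts; the deposited columns hold log2 CPM, so the plan's limma test was used. Tested on simulated data for KO against WT over 12033 genes, it called 91.0% of 1.5-fold changes and made 9 false calls, with every gene at the median dispersion of 0.00423; the share for genes that vary more was not tested. Chi-square values between libraries of 1 genotype, 10.1 to 40.3 per degree of freedom, exceeded sampling noise, and each library was kept as its own replicate. Positions are from GENCODE M21, matched by identifier for 16827 genes; promoters, matched for 9 of the 10 members, are from RefSeq. Alternatives covered the pseudocount, filter, scaling, limma-voom, each library left out, both libraries numbered 2 left out, and the replicate number as a block.

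Members and lists were chosen with earlier results of these data known. Named are the members, Ube3a, Xist, the tested genes of the interval that are no predicted models, the 2 genes of each list with the smallest p, since none passed, and the 5 genes most like Htatip2 with and without the genotype means. Ccdc114, Fancf, Gas2, Svip, Sh3glb1, Ldha as a list gene, Rps2, Golga7, Supt4a, Supt5, Hat1, Kit, Cd34 and the overlapping predicted genes were added after their values were seen.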

Additional observations from a re-analysis of the deposited data

How the results depend on the processing

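Htatip2 was lower in KO in all 16 alternatives, with log2 fold changes from −0.98 to −0.71, and from −0.98 to −0.78 with 1 library left out. This direction follows from the choice of the gene and from the lack of overlap between the genotypes. Its limma adjusted p was 0.182 in the reported fit, and 0.0371 to 0.839 over the 16 alternatives (limma or limma-voom). Without both libraries numbered 2 the log2 fold change of Htatip2 was −0.71, and 1 member (Htatip2) passed the limma threshold. There, 5 members were lower in KO and 24 genes passed in all. Both of these libraries lack most Xist, and the cause was not tested. The count of all genes passed was 2 in the reported fit, 1 with no filter on low values, 1 with at least 5 CPM, 1 with limma-voom, and 1 to 8 with 1 library left out, 8 without WT replicate 2. The median of the other 9 members lay between −0.09 and 0.0049, with 6 to 9 members lower with 1 library left out. Plain totals or median-of-ratios scaling left 8 members lower. No gene of the lists or of the rest of the interval passed under any of the 16 alternatives. Equal replicate numbers did not deviate together (correlations of −0.22, −0.13 and 0.14), and no library went best with its own number. With the replicate number as a block 2 genes passed and 8 members were lower, with Htatip2 at −0.89. With 3 libraries a genotype, 1 library can decide the sign of a small difference.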
